A study of Mus musculus with 3 samples.

Results

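Aminoacyl-tRNA synthetases are the enzymes that join each amino acid to its tRNA. Their genes were taken from the deposited gene table by name: protein-coding genes whose symbol is the single letter of an amino acid other than proline followed by ars, with or without a closing 1 or 2, together with Ears2, Eprs, Farsa, Farsb and Fars2. The rule took 36 of 55487 genes, 20 cytosolic and 16 mitochondrial, the mitochondrial ones being those whose symbol ends in 2. All 36 were among the 17655 genes kept after a filter on low values, which asked for 10 counts or more in any library, and none had fewer than 504 counts in any library. The rule used names only and no measured value, although the gene set and the lists below were chosen with earlier results of these data known.

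RNA was measured in embryoid bodies (EBs), clumps of mouse embryonic stem (ES) cells that begin to differentiate in culture. Of the 3 libraries, 1 each came from EBs collected on day 4 after 30 μM C2 ceramide, a cell-permeable ceramide with a short acyl chain, from DMSO-treated control EBs on day 4, and from control EBs on day 3. C2 ceramide was given on days 3 to 4. All EBs were made from the wild-type E14K line in hanging drops in medium with serum and without LIF, the factor that keeps ES cells undifferentiated, so the 3 conditions share 1 line. Each condition had 1 library and no replicate. Differences are therefore given by their size, with no test and no p-value, and how far separate cultures would differ is unknown.

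Cytosolic synthetases charge the tRNAs that ribosomes of the cytoplasm use, and mitochondrial synthetases, which are also encoded in the nucleus, charge those of the mitochondrial genome. Most amino acids have a gene for each compartment, whereas single genes for glycine (Gars) and lysine (Kars) serve both. In mammalian cells, ATF4, a transcription factor made when amino acids are short or the endoplasmic reticulum is stressed, raises transcription of many cytosolic synthetase genes along with those of amino acid synthesis and transport. The 12 cytosolic members reported as ATF4 targets (Aars, Cars, Eprs, Gars, Iars, Lars, Mars1, Nars, Sars, Tars, Wars and Yars) are called the ATF4 list here, and the other 8 are Dars, Farsa, Farsb, Hars, Kars, Qars, Rars and Vars.

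The libraries held 35290094 counts for C2 ceramide day 4, 35078820 for DMSO day 4 and 33619197 for DMSO day 3. Levels are in TPM, a transcript abundance scaled for transcript length and to the same total in every library. Ratios are log2 ratios of TPM, and the interval beside a ratio is a 95% interval from the counts (Clopper-Pearson), which covers counting error only and treats PCR copies of a molecule as separate. The half-width of the members' intervals was 0.019 to 0.18 over the 3 comparisons. Pou5f1, Sox2, Nanog, Otx2, Dnmt3b and Fgf5, markers of pluripotent and epiblast cells, had a summed level of 1689 TPM with C2 ceramide, 1539 TPM on DMSO day 4 and 2212 TPM on DMSO day 3, and none was at 0. Within that sum the genes differed in direction: Sox2 was at 120 TPM with C2 ceramide and 51.2 TPM on DMSO day 4, and Fgf5 at 86.6 TPM with C2 ceramide and 253 TPM on DMSO day 4. Markers of differentiated cells were not at like levels either. Summed levels of 5 primitive streak and mesoderm markers were 31.3 TPM with C2 ceramide, 430.4 TPM on DMSO day 4 and 36.1 TPM on DMSO day 3, and those of 4 neural markers were 18.8 TPM with C2 ceramide, 4.34 TPM on DMSO day 4 and 8.70 TPM on DMSO day 3, with Sox1 at 0 in each DMSO library. Tubb3 made most of the neural sums, at 16.5 TPM with C2 ceramide, 3.69 TPM on DMSO day 4 and 6.93 TPM on DMSO day 3. Neurod1 was at 0.80 TPM with C2 ceramide, 0.22 TPM on DMSO day 4 and 1.03 TPM on DMSO day 3. Visceral endoderm markers summed to 4.11 TPM with C2 ceramide, 14.7 TPM on DMSO day 4 and 3.51 TPM on DMSO day 3, of which Rbp4 alone made 1.85 TPM with C2 ceramide and 11.4 TPM on DMSO day 4. Trophoblast markers summed to 40.6 TPM with C2 ceramide, 38.7 TPM on DMSO day 4 and 22.8 TPM on DMSO day 3, the last with Elf5 at 0. Tfap2c made most of that sum, and Cdx2 was at 2.79 TPM with C2 ceramide and 7.68 TPM on DMSO day 4. In bulk RNA, fewer cells of a type and less RNA per cell cannot be told apart, and the part of these cell types in the ratios below was not tested.

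With C2 ceramide, transcripts of cytosolic synthetases on the ATF4 list were more abundant, whereas most other cytosolic members and most mitochondrial members lay near their DMSO level. Farsb, which is not on the list, had a higher ratio (0.40) than Wars (0.36) and Eprs (0.33), which are. All 12 genes of the ATF4 list had their highest level of the 3 libraries with C2 ceramide, and for all 12 the counting interval of C2 ceramide over DMSO day 4 lay above 0. Their log2 ratios were 0.33 (Eprs) to 0.92 (Lars), with a median of 0.68. The other 8 cytosolic members had ratios of -0.15 (Qars) to 0.40 (Farsb), with a median of -0.01, and the 16 mitochondrial members had ratios of -0.28 (Nars2) to 0.55 (Ears2), with a median of 0.04. The median over all 17655 genes was -0.03.

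No member was past the 2-fold thresholds of the study. Among all genes in use, 9.97% had a ratio above 2 and 12.3% a ratio below 0.5. At a threshold of 1.5-fold, 8 of 36 members were higher, where 16.4% of all genes were, and none was lower, where 19.5% of all genes were. All 8 were cytosolic and on the ATF4 list. Low counts widen the spread of ratios, and each cytosolic member had at least 3717 counts in every library, so the nearer comparison is with the 6858 genes that reached 1000 counts in any library. Of those, 5.98% were above 1.5-fold and 6.65% below 1/1.5, against 8 of 20 cytosolic members above and none below. The members nearest to the threshold were Gars and Mars1 on its upper side, each with a log2 ratio of 0.62, and Ears2 at 0.55 on its lower side, and the interval of Mars1 (0.58 to 0.65) reached just below the threshold.

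**Figure D1:**
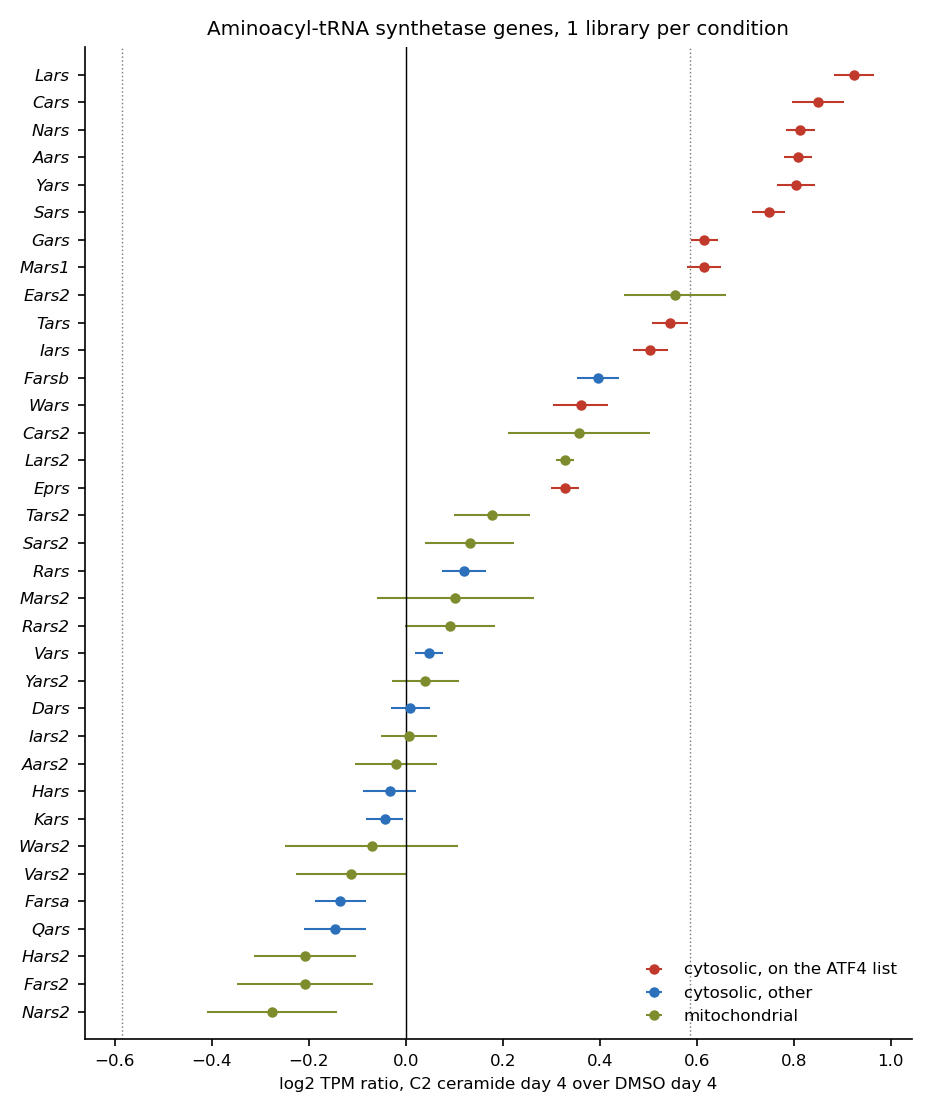
Log2 TPM ratio (C2 ceramide day 4 divided by DMSO day 4) for the synthetase genes named in the text, ordered by ratio, with horizontal bars for the 95% counting interval and dotted lines at 1.5-fold in either direction. The 8 genes past 1.5-fold are all cytosolic and on the ATF4 list (red), from Mars1 at 0.62 to Lars at 0.92, and the lowest is mitochondrial Nars2 at -0.28.

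Lars, the leucyl-tRNA synthetase gene (chr18:42202298-42262194, minus strand, GRCm38), was at 121 TPM with C2 ceramide, 63.8 TPM on DMSO day 4 and 79.9 TPM on DMSO day 3. Its ratio of C2 ceramide over DMSO day 4, 0.92 (interval 0.88 to 0.97), was the highest of the 36. In human cells its protein has also been described as a leucine sensor of the mTORC1 pathway. The DMSO day 3 level of Lars rested partly on a transcript of 322 bases typed as processed transcript, ENSMUST00000236304.1, with 11.4 TPM on that day and 0 in the other libraries. Over protein-coding transcripts Lars was at 112.9 TPM with C2 ceramide, 60.7 TPM on DMSO day 4 and 65.3 TPM on DMSO day 3.

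Cars, the cysteinyl enzyme gene (chr7:143557230-143600090, minus strand), was at 117 TPM with C2 ceramide, against 65.1 TPM on DMSO day 4 and 64.1 TPM on DMSO day 3, a log2 ratio over DMSO day 4 of 0.85 (interval 0.80 to 0.90). Yars, the tyrosyl enzyme gene (chr4:129189760-129219607, plus strand), was at 166 TPM with C2 ceramide, 95.2 TPM on DMSO day 4 and 94.4 TPM on DMSO day 3, a ratio over DMSO day 4 of 0.80 (0.76 to 0.84). In each gene the DMSO libraries of the 2 days were closer to each other than either was to C2 ceramide. Yars shares 30 bases with C77080, a gene on the opposite strand whose counts were 15.6% of its own, and the library kit does not mark strand. The ratio of C77080 was 0.27, lower than that of Yars.

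Nars, the asparaginyl enzyme gene (chr18:64499647-64516652, minus strand), was among the most abundant members, at 401 TPM with C2 ceramide, 228 TPM on DMSO day 4 and 233 TPM on DMSO day 3. Its ratio over DMSO day 4 was 0.81 (0.78 to 0.84). Sars, the seryl enzyme gene (chr3:108424865-108445209, minus strand), was at 339.6 TPM with C2 ceramide, 202 TPM on DMSO day 4 and 195 TPM on DMSO day 3, a ratio of 0.75 (0.71 to 0.78). Serine is made by Phgdh, Psat1 and Psph, and the asparagine that Nars uses is made by Asns. Asns, Psat1 and Phgdh, all from the list of ATF4 response genes described below, were also higher with C2 ceramide. Asns was at 431 TPM with C2 ceramide and 195 TPM on DMSO day 4, Psat1 at 224 TPM with C2 ceramide and 102.5 TPM on DMSO day 4, and Phgdh at 359 TPM with C2 ceramide and 209 TPM on DMSO day 4. Psph was not examined, and a link between these genes and Sars or Nars was not tested.

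Gars, the glycyl enzyme gene (chr6:55038007-55079500, plus strand), whose enzyme works in the cytosol and in mitochondria, was at 414 TPM with C2 ceramide, 271 TPM on DMSO day 4 and 239.7 TPM on DMSO day 3, a ratio over DMSO day 4 of 0.62 (0.59 to 0.64). It was the most abundant cytosolic member in every library. Mars1, the methionyl enzyme gene (chr10:127296221-127311786, minus strand), was at 198 TPM with C2 ceramide, 129 TPM on DMSO day 4 and 126 TPM on DMSO day 3, a ratio of 0.62. Mars1 shares 68 bases with Ddit3, the gene of the stress transcription factor CHOP on the opposite strand. Ddit3 had a ratio of 1.43, and its counts on DMSO day 4 were 2.73% of those of Mars1. With C2 ceramide, Ddit3 had 789 counts and Mars1 had 16226. The part of the shared bases in the ratio of Mars1 was not tested.

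Aars, the alanyl enzyme gene (chr8:111033144-111057664, plus strand), was at 164 TPM with C2 ceramide, 93.6 TPM on DMSO day 4 and 106 TPM on DMSO day 3, a ratio over DMSO day 4 of 0.81 (0.78 to 0.84). Aars shares 1326 bases on the same strand with Exosc6, a gene of the RNA exosome. Exosc6 was given 0 counts with C2 ceramide, 1136 on DMSO day 4 and 795 on DMSO day 3, and how reads of the shared bases were divided between the pair in each library was not tested. Summed over both genes, the log2 ratio of CPM, the counts divided by the library total, was 0.72 (0.69 to 0.75) for C2 ceramide over DMSO day 4, still past 1.5-fold, and 0.55 (0.52 to 0.58) for C2 ceramide over DMSO day 3, no longer past it. This sum was chosen after the data were seen.

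The 4 remaining genes of the ATF4 list lay below 1.5-fold. Tars (threonine) had a ratio of 0.54 (0.51 to 0.58) and Iars (isoleucine) one of 0.50 (0.47 to 0.54). Wars (tryptophan) stood at 0.36 (0.30 to 0.42) and Eprs, whose protein carries the glutamyl and the prolyl enzyme in 1 chain, at 0.33 (0.30 to 0.36). In levels, the list as a whole summed to 2430 TPM with C2 ceramide, 1524 TPM on DMSO day 4 and 1516 TPM on DMSO day 3. The other 8 cytosolic members summed to 1214 TPM with C2 ceramide, 1172 TPM on DMSO day 4 and 1195 TPM on DMSO day 3. Of the summed cytosolic difference of 947 TPM between C2 ceramide and DMSO on day 4, the ATF4 list held 95.6%.

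**Figure D2:**
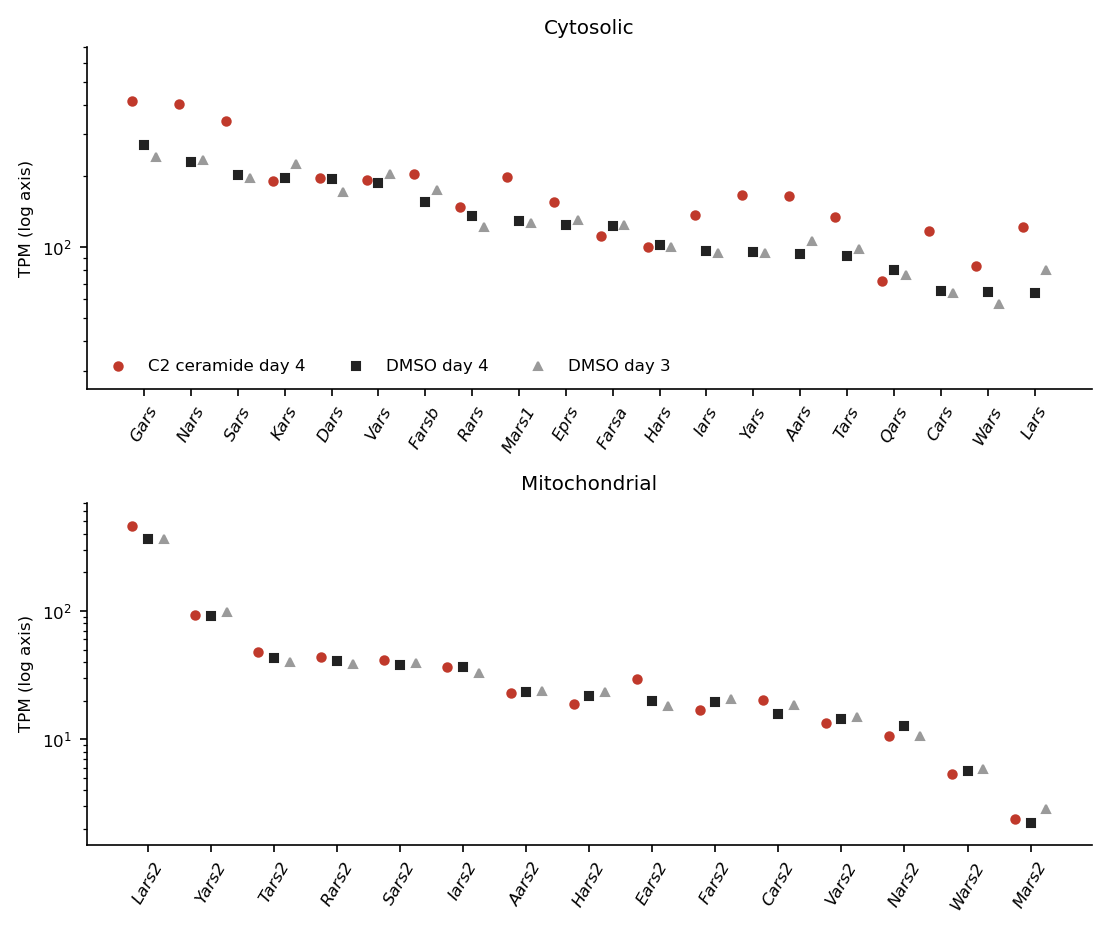
TPM of each synthetase gene named in the text in the 3 libraries on log axes of different range, cytosolic genes above and mitochondrial genes below, each ordered by its DMSO day 4 level. C2 ceramide (red circles) lies above the DMSO libraries (squares for day 4, triangles for day 3) for all 12 genes of the ATF4 list, as for Nars at 401 TPM with C2 ceramide and 228 TPM on DMSO day 4, and close to them for most others, as for Yars2 at 93.2 TPM with C2 ceramide and 90.7 TPM on DMSO day 4.

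The promoters of the members were searched for the word TGATGNAA, the core of the C/EBP-ATF response element to which ATF4 binds with a C/EBP partner, because the ATF4 list moved together. RefSeq windows of 250 bases before to 50 bases after the RefSeq start (GRCm38.p6) were matched for 27 of the 36 members. Cars, Hars, Hars2, Lars, Nars, Rars, Vars and Wars were among those not matched. The RefSeq start need not be the gene start given above, and for Aars and Yars it lies inside the gene coordinates given. Read on both strands, the word stood in the windows of Aars, Gars, Iars, Tars and Yars, 5 of the 8 matched genes of the ATF4 list, in 0 of 5 matched other cytosolic genes and in 0 of 14 matched mitochondrial genes. It stood in 3.97% of all 32851 windows, a share per window and not per gene. The list was made of reported ATF4 targets, so matches within it are no separate evidence of a link to ATF4. The windows are shown because they hold every match in a member, with the word in capitals. In all but Yars it lies on the other strand, so its reverse complement is printed. Each sequence runs 5′ to 3′ on the strand of the gene: Aars chr8:111033592-111033891 (plus, the whole window), Gars chr6:55037951-55038050 (plus), Iars chr13:49682080-49682179 (plus), Tars chr15:11399609-11399708 (minus) and Yars chr4:129189853-129189952 (plus). The last 4 are cut to the 100 bases from 50 before to 50 after the RefSeq start.
Aars: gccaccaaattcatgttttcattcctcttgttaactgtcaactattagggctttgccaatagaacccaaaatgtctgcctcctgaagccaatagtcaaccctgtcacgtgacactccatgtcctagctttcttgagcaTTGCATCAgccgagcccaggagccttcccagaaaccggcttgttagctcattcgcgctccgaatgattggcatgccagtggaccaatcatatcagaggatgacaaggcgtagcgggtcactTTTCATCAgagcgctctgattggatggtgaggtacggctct
Gars: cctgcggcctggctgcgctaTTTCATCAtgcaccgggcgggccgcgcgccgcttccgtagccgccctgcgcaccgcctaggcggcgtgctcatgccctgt
Iars: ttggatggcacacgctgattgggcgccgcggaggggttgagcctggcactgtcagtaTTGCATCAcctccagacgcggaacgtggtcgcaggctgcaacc
Tars: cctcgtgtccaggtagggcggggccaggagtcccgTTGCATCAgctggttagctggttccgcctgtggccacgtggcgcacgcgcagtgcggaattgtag
Yars: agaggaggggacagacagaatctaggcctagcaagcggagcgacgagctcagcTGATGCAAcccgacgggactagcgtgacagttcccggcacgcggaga
Counted from the RefSeq start, Aars held the word at 2 places, 112 to 105 bases before the start and 10 to 17 bases after it. In Gars it lay 30 to 23 bases and in Tars 15 to 8 bases before the start, and in Iars and Yars it began 8 and 4 bases after it. A match is a description of these letters and not a sign of binding. Among 11533 protein-coding genes in use with a window, 15.0% had a ratio of C2 ceramide over DMSO day 4 above 1.5, and of the 315 with the word 25.1% did, although the median ratio of those 315 was only 0.05, against -0.02 for all. The share above 1.5 was 8.61% for genes with TGACGTCA, 13.2% for those with CACGTG and 5.08% for those with CCGGAAGT, the other words searched. Shares below 1/1.5 were not computed for these sets. The sets held genes from 10 counts up, and low counts widen the spread of ratios. The cyclic AMP response element TGACGTCA was in 1.79% of windows and in no member's. The E-box CACGTG was in 7.15% of windows and in those of Aars, Ears2, Farsb, Iars and Tars. The ETS site CCGGAAGT was in 3.89% and in those of Farsa, Mars1 and Rars2. None of these words overlapped TGATGNAA in a member.

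The cytosolic members outside the ATF4 list include the subunits of a single enzyme that did not move alike. Phenylalanyl-tRNA synthetase is built from the products of Farsa and Farsb. Farsb was at 204 TPM with C2 ceramide, 155 TPM on DMSO day 4 and 174 TPM on DMSO day 3, a ratio over DMSO day 4 of 0.40 (0.35 to 0.44). Farsa was at 112 TPM with C2 ceramide, 123 TPM on DMSO day 4 and 123 TPM on DMSO day 3, a ratio of -0.13 (-0.19 to -0.08). The log2 difference of Farsb minus Farsa, 0.53 (0.46 to 0.60), was larger than counting error. Rars (arginine) had a ratio of 0.12, Vars (valine) 0.05, Dars (aspartate) 0.01, Hars (histidine) -0.03, Kars (lysine) -0.04 and Qars (glutamine) -0.15. The intervals of Dars and Hars held 0. Those of Rars and Vars lay above it and those of Kars and Qars below. Under CPM the ratios were 0.16 for Rars, 0.01 for Vars, -0.03 for Kars and -0.06 for Qars. Over coding transcripts they were 0.15 for Rars, -0.04 for Vars, -0.04 for Kars and -0.26 for Qars. The direction of Vars thus depended on the setting. Kars makes a cytosolic and a mitochondrial form of its enzyme by alternative splicing. Its transcript ENSMUST00000034426.13 was at 155.7 TPM with C2 ceramide, 165 TPM on DMSO day 4 and 180.4 TPM on DMSO day 3, and ENSMUST00000093120.12 was at 31.2 TPM with C2 ceramide, 25.3 TPM on DMSO day 4 and 39.0 TPM on DMSO day 3. Which form each encodes is not given in the sources used here.

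Several cytosolic enzymes work in a multi-tRNA synthetase complex, held together by scaffold proteins encoded by Aimp1, Aimp2 and Eef1e1. Its 8 enzyme genes had a median ratio of 0.22, against 0.58 for the 12 cytosolic members outside it. Within the complex the genes split as the ATF4 list does: Lars stood at 0.92, Mars1 at 0.62, Iars at 0.50 and Eprs at 0.33, while Rars, Dars, Kars and Qars lay between -0.15 and 0.12. The scaffold genes had ratios of -0.08 (Aimp2) to 0.03 (Aimp1). Transcripts of the complex thus differed in proportion between the libraries. By the structural class of the catalytic domain there was little difference, with medians of 0.43 for the 10 class I and 0.47 for the 10 class II cytosolic genes.

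Mitochondrial synthetase transcripts had a lower median level than cytosolic ones, although Lars2 and Yars2 stood above several cytosolic members on DMSO day 4. The median level of the 16 was 26.1 TPM with C2 ceramide, 22.4 TPM on DMSO day 4 and 23.5 TPM on DMSO day 3, and that of the 20 cytosolic members was 159.6 TPM with C2 ceramide, 123 TPM on DMSO day 4 and 122 TPM on DMSO day 3. Mars2 was the lowest, at 2.40 TPM with C2 ceramide, 2.24 TPM on DMSO day 4 and 2.86 TPM on DMSO day 3. Of the 16, 5 had an interval above 0 for C2 ceramide over DMSO day 4, 3 had an interval below 0 and 8 had one that held 0. The highest ratio was that of Ears2, the mitochondrial glutamyl enzyme gene (chr7:122037213-122067263, minus strand), at 29.3 TPM with C2 ceramide, 19.99 TPM on DMSO day 4 and 18.1 TPM on DMSO day 3 (0.55, interval 0.45 to 0.66). Ears2 overlaps 89 bases of Ubfd1 on the opposite strand, whose counts were 582% of its own and whose ratio was within 0.01 of 0. Cars2 had a ratio of 0.36 (0.21 to 0.50), Tars2 one of 0.18 (0.10 to 0.26) and Sars2 one of 0.13 (0.04 to 0.22). The 3 genes with intervals below 0 were Hars2 at -0.21, Fars2 at -0.21 and Nars2 at -0.28. Among the 8 whose intervals held 0 were Mars2 (0.10), Rars2 (0.09), Yars2 (0.04), Iars2 (0.01), Aars2 (-0.02), Wars2 (-0.07) and Vars2 (-0.11). Across both compartments 14 members overlap another gene in use, 12 of them on the opposite strand, and 6 overlap a gene with at least 20% of their own counts. These include Hars2, which lies head to head with Hars and shares 198 bases with it, and Cars2, which shares 984 bases with Naxd. Naxd had 206% of the counts of Cars2 and a ratio of -0.26, so the ratios of such pairs are less certain than their intervals say.

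Lars2, the mitochondrial leucyl enzyme gene (chr9:123366927-123462666, plus strand), had the highest TPM of all 36 genes, 460.3 with C2 ceramide, 366.6 on DMSO day 4 and 366.5 on DMSO day 3, a ratio over DMSO day 4 of 0.33 (0.31 to 0.35). Nearly all of this level belonged to 1 transcript that the annotation types as nonsense-mediated decay, ENSMUST00000217116.1, at 433.7 TPM with C2 ceramide, 340.6 TPM on DMSO day 4 and 336.8 TPM on DMSO day 3. The protein-coding transcript ENSMUST00000038863.8 was at 22.0 TPM with C2 ceramide, 22.0 TPM on DMSO day 4 and 24.6 TPM on DMSO day 3. All coding transcripts together held 5.72% of the gene's TPM with C2 ceramide, 6.97% on DMSO day 4 and 7.95% on DMSO day 3. Over coding transcripts the ratio of Lars2 was 0.04, and its level lay within the range of the other mitochondrial members. The level of the gene was thus mostly that of a transcript not typed as coding. The gene CT010467.1, typed rRNA, was at 2971 TPM with C2 ceramide, 2326 TPM on DMSO day 4 and 2497 TPM on DMSO day 3, a ratio of 0.35 close to that of Lars2, and any relation between the pair was not tested. Without Lars2, the mitochondrial members summed to 472 TPM with C2 ceramide, 451 TPM on DMSO day 4 and 454 TPM on DMSO day 3, and their median ratio was 0.04.

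**Figure D3:**
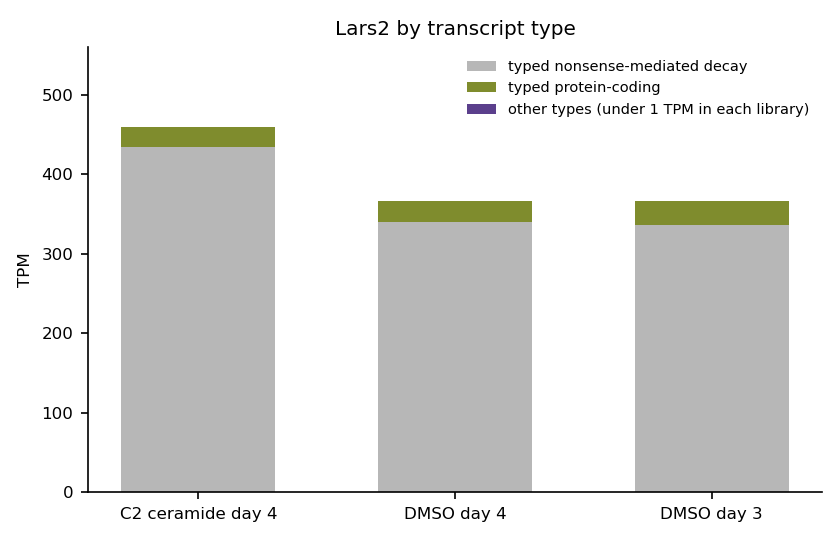
TPM of Lars2 in each library, stacked by the type the annotation gives its transcripts. The transcript typed nonsense-mediated decay (grey) holds 433.7 TPM with C2 ceramide, 340.6 TPM on DMSO day 4 and 336.8 TPM on DMSO day 3, and the protein-coding transcripts (green) hold 26.3 TPM with C2 ceramide, 25.5 TPM on DMSO day 4 and 29.1 TPM on DMSO day 3.

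Transcripts typed as non-coding held part of the level of other members too. On DMSO day 4, coding transcripts held under 80% of the TPM of 7 members, among them Cars2, Lars2, Nars, Qars, Vars2 and Wars2. For Wars2 the coding share was 46.0% with C2 ceramide, 66.1% on DMSO day 4 and 36.0% on DMSO day 3, and its coding ratio was -0.59 where that of the gene was -0.07. Wars2 had few counts, and the split between transcripts is itself an estimate. Over coding transcripts only, 9 members were above 1.5-fold with C2 ceramide, the same 8 and Iars, with medians of 0.45 for cytosolic and 0.05 for mitochondrial members.

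Set side by side for the same amino acid, the cytosolic gene had the higher ratio of C2 ceramide over DMSO day 4 in 15 of 17 pairs, Fars2 being paired with Farsa and with Farsb. The interval of the log2 difference lay above 0 in 13 pairs and below 0 in 1, and the median difference was 0.49. The difference was widest for asparagine, 1.09 (0.95 to 1.22), where Nars was higher with C2 ceramide and Nars2 was at 10.5 TPM with C2 ceramide, 12.7 TPM on DMSO day 4 and 10.6 TPM on DMSO day 3. It was 0.83 (0.74 to 0.92) for alanine, with Aars2 at 22.9 TPM with C2 ceramide, 23.2 TPM on DMSO day 4 and 23.7 TPM on DMSO day 3. For tyrosine it was 0.76 (0.69 to 0.84), with Yars2 at 93.2 TPM with C2 ceramide, 90.7 TPM on DMSO day 4 and 97.6 TPM on DMSO day 3. In these 3 pairs the ratio of the mitochondrial gene was 0.04 or less and that of the cytosolic gene 0.80 or more. For serine the difference was 0.62 (0.52 to 0.71), with Sars2 at 41.3 TPM with C2 ceramide, 37.7 TPM on DMSO day 4 and 39.3 TPM on DMSO day 3. Farsb minus Fars2 gave 0.60 (0.46 to 0.75), with Fars2 at 16.8 TPM with C2 ceramide, 19.4 TPM on DMSO day 4 and 20.5 TPM on DMSO day 3. Lars minus Lars2 gave 0.60 (0.55 to 0.64), or more over coding transcripts, where the ratio of Lars was 0.89 and that of Lars2 was 0.04. The pair whose order was the reverse beyond counting error was glutamate, with Eprs minus Ears2 at -0.23 (-0.33 to -0.12).

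**Figure D4:**
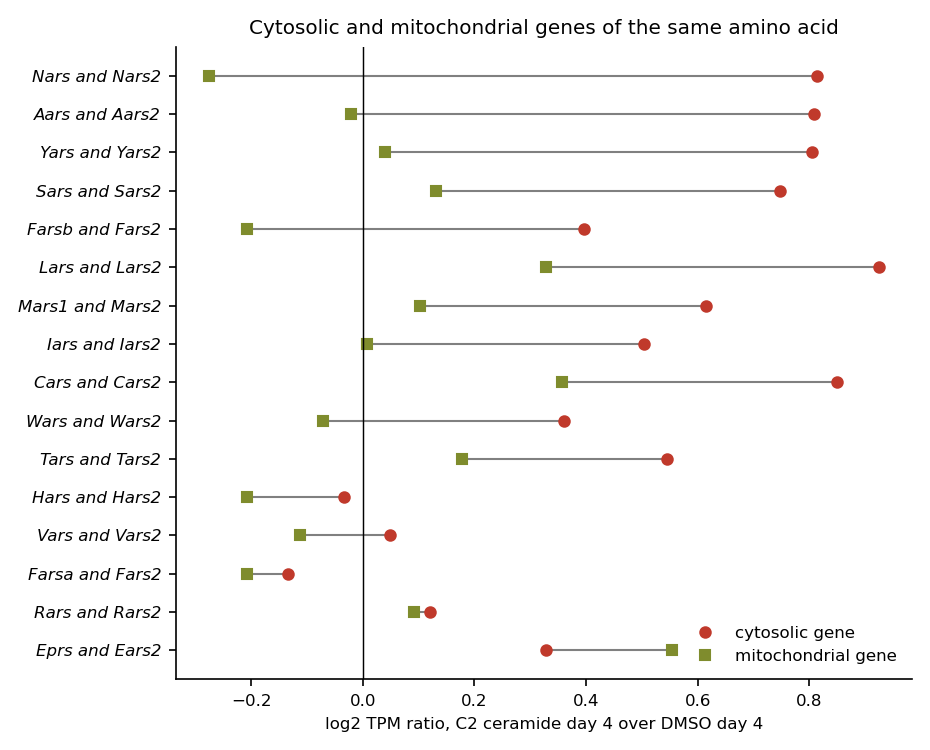
Log2 TPM ratio (C2 ceramide day 4 divided by DMSO day 4) for the cytosolic gene (red circle) and the mitochondrial gene (green square) of the same amino acid, joined by a line and ordered by their difference, with Fars2 in 2 of the pairs. The circle lies to the right of the square in 15 of the 16 pairs drawn, most widely for Nars and Nars2 at 0.81 and -0.28, and to its left for Eprs and Ears2 at 0.33 and 0.55.

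Between the DMSO libraries the synthetases differed little. The streak and mesoderm markers were higher on DMSO day 4 than on DMSO day 3, as given above, but no member was past 2-fold in either direction, where 12.8% of all genes were above 2 for DMSO day 4 over DMSO day 3 and 9.45% were below 0.5. None was past 1.5-fold either, where 20.4% of all genes were above and 15.4% below. These shares include genes with low counts, which widen the spread of ratios. Shares for abundant genes only were not computed here, so whether the synthetases differed less than genes of like counts was not tested. The ratios were -0.36 (Mars2) to 0.26 (Nars2), with medians of 0.02 for the cytosolic and -0.04 for the mitochondrial members and 0.05 for all genes, and the cytosolic median was -0.025 under CPM and -0.061 under TMM scaling. The 12 genes of the ATF4 list had a median of 0.02, a lowest ratio of -0.32 (Lars) and a highest of 0.18 (Gars). That of Lars was -0.10 over coding transcripts and -0.15 under CPM. Kars was at 196 TPM on DMSO day 4 and 225 TPM on DMSO day 3 (-0.20, interval -0.24 to -0.16), and Dars at 195 TPM on DMSO day 4 and 171 TPM on DMSO day 3 (0.19, 0.14 to 0.23). Cytosolic genes were above their mitochondrial partner in 9 of 17 pairs, with a median difference of 0.07 and none past 1.5-fold.

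For C2 ceramide day 4 over DMSO day 3, no member was past 2-fold, where 11.2% of all genes were above 2 and 9.39% below 0.5. Above 1.5-fold were 9 members, where 18.2% of all genes were, and none was below 1/1.5, where 15.7% were. These shares too include genes with low counts, and shares for abundant genes only were not computed for this comparison. The 9 were the same 8 cytosolic genes and Ears2, whose ratio was 0.70 (0.59 to 0.81). The medians were 0.64 for the ATF4 list, -0.04 for the other cytosolic members and 0.02 for the mitochondrial members. This comparison shares the C2 ceramide library with the one on day 4 and its DMSO library with the one before, so it is no separate evidence.

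Many other genes of the ATF4 and amino acid response had larger ratios than the synthetases. Of 20 such genes, 11 were above 2-fold and 16 above 1.5-fold with C2 ceramide over DMSO day 4, with a median ratio of 1.13. Atf4 itself was at 315 TPM with C2 ceramide, 143 TPM on DMSO day 4 and 124 TPM on DMSO day 3, a ratio over DMSO day 4 of 1.14 (1.10 to 1.18). Chac1, which encodes an enzyme that degrades glutathione, was at 81.6 TPM with C2 ceramide, 9.79 TPM on DMSO day 4 and 3.74 TPM on DMSO day 3 (3.06). Trib3, whose pseudokinase binds ATF4, was at 87.0 TPM with C2 ceramide, 16.1 TPM on DMSO day 4 and 14.7 TPM on DMSO day 3 (2.43). Nupr1, a stress-induced regulator of chromatin, had a ratio of 2.72, Atf3 one of 1.89, Stc2 one of 1.74 and Ddit3 one of 1.43. All of the 8 synthetase genes past 1.5-fold were below every one of these in ratio. They were not below every gene of the response. Slc3a2 (0.91), Phgdh (0.78), Slc7a11 (0.74) and Shmt2 (0.63) lay within the range of the 8, and Ppp1r15a (0.55) below it. Further genes of the response had lower ratios still or went the other way. Ddit4, which encodes an inhibitor of mTORC1, was at 19.2 TPM with C2 ceramide, 31.9 TPM on DMSO day 4 and 37.9 TPM on DMSO day 3 (-0.73), Vldlr had a ratio of 0.13, and Cebpg, a C/EBP partner of ATF4, one of 0.41. Cebpb, another C/EBP gene of the list, had a higher ratio, 1.34, at 103 TPM with C2 ceramide and 40.6 TPM on DMSO day 4. Between the DMSO libraries, the 20 genes had a median ratio of 0.14. Chac1, Vldlr and Atf3 were above 1.5-fold for DMSO day 4 over DMSO day 3, where 20.4% of all genes were. Ddit3 (-0.59) was below 1/1.5, where 15.4% of all genes were.

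**Figure D5:**
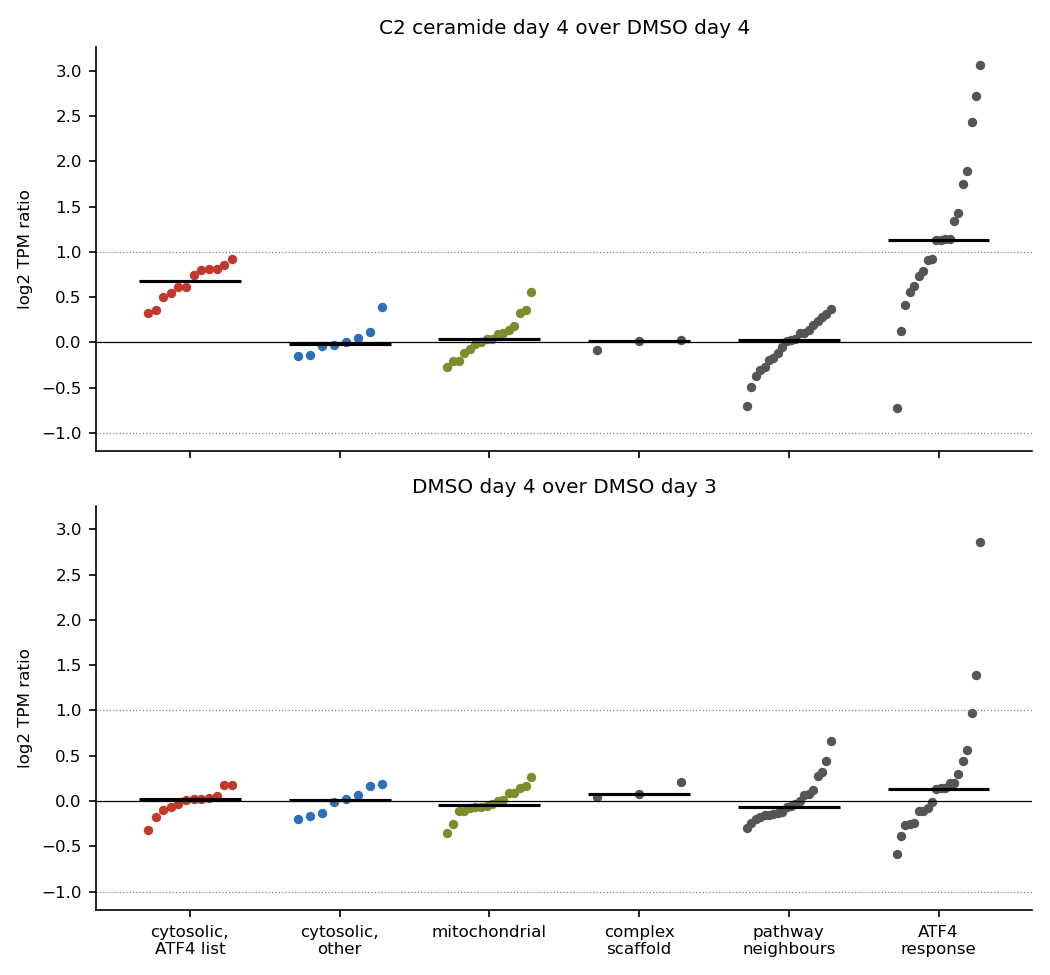
Log2 TPM ratio of each gene by list, for C2 ceramide day 4 over DMSO day 4 (upper panel) and DMSO day 4 over DMSO day 3 (lower panel), with a bar at the median and dotted lines at 2-fold. With C2 ceramide the medians are 0.68 for the ATF4 list, -0.01 for other cytosolic members, 0.04 for mitochondrial members, 0.01 for the scaffold, 0.02 for pathway neighbours and 1.13 for the ATF4 response, and between the DMSO libraries they lie between -0.06 and 0.14.

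Other genes of tRNA charging and its use did not move as the ATF4 list did. The 20 fixed for this purpose had a median ratio of 0.02 with C2 ceramide over DMSO day 4. None was above 1.5-fold and 1 was below 1/1.5. That gene was Tarsl2, a relative of Tars for threonine that the rule did not take, at 2.23 TPM with C2 ceramide, 3.62 TPM on DMSO day 4 and 2.90 TPM on DMSO day 3 (-0.70, interval -0.97 to -0.44). Pars2, the mitochondrial prolyl enzyme gene, also not taken, was at 15.7 TPM with C2 ceramide, 12.9 TPM on DMSO day 4 and 9.51 TPM on DMSO day 3 (0.28). Xpot, which exports tRNA from the nucleus, had the highest ratio of the 20, 0.37, and Trnt1, which adds the CCA end of tRNA, had 0.31. Of the subunits that make glutaminyl-tRNA in mitochondria, where no Qars2 exists, Qrsl1 stood at 0.24, Gatc at -0.28 and Gatb at -0.37. The elongation factor genes, whose products carry charged tRNA to the ribosome or reload those that do, had ratios of 0.03 (Eef1a1), 0.02 (Eef1g), -0.12 (Eef1d) and 0.14 (Eef1b2) in the cytosol and of -0.17 (Tufm) and -0.05 (Tsfm) in mitochondria, and the intervals of Eef1g and Tsfm held 0.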

How the data were processed

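Each of the 3 EB conditions had 1 RNA library. The authors extracted total RNA, removed DNA with DNase I, amplified cDNA with a SMART-Seq kit, which does not mark strand, and analysed the reads with DRAGEN against GRCm38 with its GENCODE annotation. The deposited gene and transcript tables hold TPM values, which the authors scaled to the same total in every library, and estimated counts, which are expected counts in the deposited tables and need not be whole. Library totals were 33619197 to 35290094 counts. Columns without a sample numbered 0, and the annotation columns were used for names, types and positions only.

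Ratios of TPM (pandas 2.3.3 and NumPy 2.4.6), count intervals (SciPy 1.17.1) and plots (Matplotlib 3.10.9) were made in Python 3.11.15. Where TPM was 0, the value 0.001 took its place. Genes were used where any library gave them 10 counts or more. The exact conditional 95% interval of rounded counts per library total was shifted to the TPM ratio. The 95% interval of a difference between genes is a normal approximation from the reciprocals of the counts of both genes in both libraries. Calls were ratios above 2 or below 0.5, with 1.5-fold as an alternative. With 1 library per condition no test was possible. The members are named, except 1 mitochondrial gene that counts, sums and medians include and whose own values are not reported here, and values in every library are given for those past 1.5-fold, for the 3 with the highest TPM on DMSO day 4 and for pairs of the same amino acid that differ by over 1.5-fold, and further values were chosen after they were seen. The members and lists were chosen with earlier results of these data known. Promoter windows came from RefSeq (GRCm38.p6). Alternatives were CPM, TMM factors from edgeR 4.0.16 and size factors from DESeq2 1.42.0 in R 4.3.3 (scaling only, on rounded expected counts), added pseudocounts of 0.1 and 1 TPM, other filters and protein-coding transcripts. The steps for ratios and for the intervals of single genes were tested on simulated counts, which held counting error only. The other steps were not tested in this way.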

Additional observations from a re-analysis of the deposited data

How the results depend on the processing

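With the threshold at 1.5-fold in place of 2-fold, the members higher with C2 ceramide over DMSO day 4 numbered 8 in place of 0, and those higher over DMSO day 3 numbered 9 in place of 0. The other alternatives left these counts and those of lower members at 0. The 8 members above 1.5-fold with C2 ceramide over DMSO day 4 were also above it under CPM, TMM factors, DESeq2 size factors, coding transcripts and with 0.1 or 1 TPM added, and Iars joined them under TMM factors, DESeq2 size factors and coding transcripts. No mitochondrial member was above it under these settings. The cytosolic minus mitochondrial difference of medians was 0.38 to 0.41. The cytosolic median for C2 ceramide over DMSO day 4, 0.45, became 0.40 with Tarsl2 added. That for DMSO day 4 over DMSO day 3, 0.02, became -0.025 under CPM, -0.061 under TMM factors and -0.055 under DESeq2 size factors, so its direction was not determined. Member ratios left their counting interval for 7 of 36 under CPM, 12 under TMM factors, 11 under DESeq2 size factors and 9 over coding transcripts. Adding 0.1 TPM, leaving out Lars2 and summing Aars with Exosc6 (0.72, against 0.81 for Aars) were chosen after the data were seen. No paired analysis was possible because each condition had 1 library. Depth limited the rarest members, with half-widths of up to 0.18, and variation between cultures could not be measured.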
